A study of Mus musculus with 3 samples.

Results

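Luminal aortic endothelial cells form the single sheet that lines the vessel and faces the blood. Here they were chosen from the droplet data of the series by measured values. A cell had to hold 600 to 5000 genes and at most 10% mitochondrial molecules, and all other limits were set on unique molecular identifiers (UMIs, each counting 1 captured RNA molecule) per 10000 of the cell. *Pecam1* and *Cdh5*, which encode junction proteins of endothelial cells, had to sum to at least 4, *Ptprc*, the pan-leukocyte gene, had to be 0, and 6 contractile genes of smooth muscle cells (SMCs; *Acta2*, *Myh11*, *Tagln*, *Cnn1*, *Myl9* and *Tpm2*) had to sum to under 100. *Dcn*, the fibroblast proteoglycan decorin, had to be under 30. Of 3 sums, that of *Vwf*, *Heg1*, *Bmp4* and *Edn1* had to exceed both a capillary sum (*Gpihbp1*, *Rgcc*, *Cd36* and *C1qtnf9*) and a lymphatic sum (*Mmrn1*, *Flt4*, *Prox1* and *Reln*). The rule found 194 cells among the 26158 that passed the limits on genes and mitochondrial molecules, 44 of 5361 in WT, 88 of 8076 in mgR and 62 of 12721 in mgR-LOS.

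All mice were male, of strain C57BL/6J and at postnatal day 45 (P45), and the tissue was the ascending aorta. WT is a pool of 3 wild-type mice, mgR a pool of 3 Fbn1mgR/mgR mice and mgR-LOS a pool of 4 Fbn1mgR/mgR mice that received losartan, a blocker of the type I angiotensin II receptor, at 0.6 g/L in their drinking water from P16. The mgR allele is hypomorphic in every cell and leaves less normal fibrillin-1, the microfibril protein altered in Marfan syndrome, so that no change in these cells can be assigned to the endothelium's own *Fbn1*. Whether vehicle was given to the mgR pool is not stated in the labels. Each condition is 1 library of pooled tissue. No difference between conditions could therefore be tested, and every interval given in parentheses is a 95% interval that covers counting error only.

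The endothelium of large arteries senses shear stress from the flowing blood. Steady laminar flow is known to maintain the transcription factors *Klf2* and *Klf4* and nitric oxide synthesis, whereas disturbed flow is known to favor adhesion molecules, clotting proteins and genes downstream of YAP and AP-1. Luminal cells of arteries also make elastic-fiber proteins and basement membrane for the lamina on which they rest, and release von Willebrand factor, endothelin-1 and bone morphogenetic proteins.

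Some of the limits removed many cells and others hardly any. Of the cells that met the endothelial limit and had the luminal sum largest, 73 in WT, 123 in mgR and 122 in mgR-LOS, the limit on *Dcn* left out 26, 22 and 46, the limit on SMC genes 3, 14 and 12, and that on *Ptprc* 0, 5 and 4. The highest *Dcn* value inside the limit was 28.9, 21.1 and 29.7 UMIs per 10000 in WT, mgR and mgR-LOS, and the lowest outside was 34.3, 32.2 and 30.9. For the SMC sum the same values were 64.9, 86.9 and 91.1 inside and 158, 103 and 111 outside. The lowest *Pecam1* plus *Cdh5* value inside was 9.42, 8.34 and 6.62, and the highest outside 0.589, 3.51 and 2.88, so that no cell lay close to that limit in WT. The luminal sum of a member led the larger of the other sums by at least 1.63, 1.72 and 0.867 UMIs per 10000, while cells with a tie stayed outside. The cells that only *Dcn* kept out carried it at 10864.2, 10158.9 and 8566 CPM (UMIs per 1000000), and *Pecam1* at 1066, 923 and 1206 CPM.

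The members held 367596 UMIs in WT, 667896 in mgR and 387828 in mgR-LOS, with medians of 7290.5, 7748 and 5120.5 UMIs and 2469, 2750.5 and 2024.5 genes per cell. All passing cells of the same libraries had medians of 13636, 12410.5 and 8334 UMIs, so that depth was lowest in mgR-LOS in both. An artificial-neighbor score called 230, 522 and 1295 doublets in the libraries, of which 0, 1 and 0 were members, and called doublets were kept. The libraries shared 22 (WT and mgR), 29 (WT and mgR-LOS) and 46 (mgR and mgR-LOS) cell barcodes, none of them of a member. *Fbn1* (ENSMUSG00000027204, chr2:125300594-125507993, - strand; GRCm38) stood at 68.01 CPM in WT (44.01 to 100.4), 20.96 CPM in mgR (11.5 to 35.2) and 36.1 CPM in mgR-LOS (19.7 to 60.6) in the members. In all other cells it was at 362.7, 150.9 and 117 CPM, lower in both mutant libraries than in WT.

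The label was checked against lists of marker genes. The 10 pan-endothelial genes summed to 7620, 8043 and 8055 CPM in WT, mgR and mgR-LOS, against 158.1, 199.1 and 169 CPM in all other passing cells. These other cells include the capillary-type and lymphatic cells. This list includes *Pecam1* and *Cdh5*, and all 10 of its genes passed 100 CPM. Of 9 arterial genes 7 passed 100 CPM in at least 1 library, and *Gja5*, the connexin of arterial gap junctions, was at 147, 231 and 108 CPM in the members and 0, 0 and 35.8 CPM in capillary-type cells. *Bmx*, a kinase of arterial endothelium, was at 209.5, 289 and 467 CPM in the members and 0, 13.1 and 0 CPM in capillary-type cells. The fatty-acid carrier *Fabp4* stood at 620.2, 591 and 606 CPM in members and 19009.4, 18951.2 and 20104.7 CPM in capillary-type cells. The 6 lymphatic genes found in the files, 4 of them terms of the rule, summed to 76.2, 38.9 and 108.3 CPM, against 5301, 7117 and 4588 CPM in lymphatic cells. The whole arterial list, none of it in the rule, summed to 2138, 3613 and 2816 CPM in members, 756.5, 959.4 and 1709 CPM in capillary-type cells and 1984, 1787 and 1660 CPM in lymphatic cells, so that members stood above both in every library but close to lymphatic cells in WT. *Cytl1*, a secreted cytokine-like protein that was listed here among genes of valve and endocardial endothelium, was among the most abundant transcripts of the members at 4500, 3123 and 2929 CPM, and of the other 5 genes of that list *Hapln1* alone passed 100 CPM. *Npr3* was at 2.72, 1.497 and 38.7 CPM. The whole valve and endocardial list, led by *Cytl1*, summed to 4804, 3322 and 3393 CPM in members. This was above the arterial list in WT and mgR-LOS. Whether cells from near the valve are among the members could not be settled from these markers. *Hapln1*, a link protein of the matrix, was at 152.3, 85.3 and 224 CPM, above *Gja5* in WT and mgR-LOS, in 7, 4 and 8 cells, of which 1 held 53.6%, 57.9% and 40.2% of its UMIs.

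**Figure D1:**
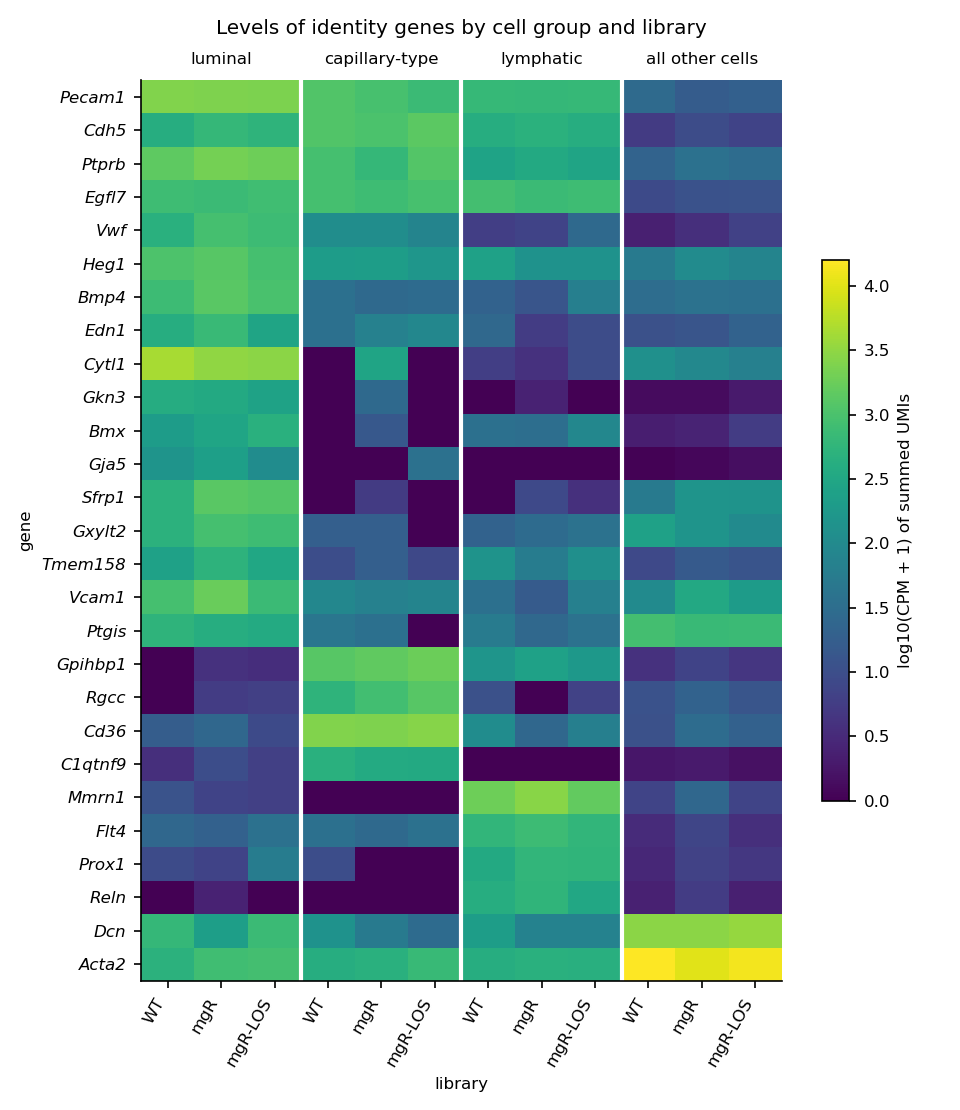
Each row is a gene and each column a library within a cell group (luminal, capillary-type, lymphatic, all other cells), and the color gives log10(CPM + 1) of the UMIs summed over the group. *Vwf*, *Heg1*, *Bmp4*, *Edn1* and the capillary and lymphatic genes chose the groups, whereas *Cytl1*, *Gkn3*, *Bmx*, *Gja5*, *Sfrp1* and *Gxylt2* did not, and these 6 stand higher in luminal than in capillary-type cells of every library.

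The genes of the rule describe the choice and are no finding. *Vwf* (ENSMUSG00000001930, chr6:125546774-125686679, + strand), which encodes the multimeric adhesive protein that tethers platelets, stood at 468 CPM in WT (401 to 543), 897 CPM in mgR (826.5 to 972) and 750.3 CPM in mgR-LOS (667 to 842). *Heg1*, a junctional partner of the cerebral cavernous malformation proteins, stood at 1058 CPM in WT (956 to 1169), 1279 CPM in mgR (1194 to 1367) and 910.2 CPM in mgR-LOS (818 to 1010). *Bmp4*, a bone morphogenetic protein that disturbed flow is known to induce, was at 753.5 CPM in WT (667 to 848), 1342 CPM in mgR (1255 to 1432) and 982 CPM in mgR-LOS (886 to 1086). *Edn1*, the vasoconstrictor endothelin-1, was at 413.5 CPM in WT (350.4 to 485), 707 CPM in mgR (644 to 773) and 281 CPM in mgR-LOS (231 to 339). *Heg1* was the largest of the 4 in 25 of 44 cells in WT, 30 of 88 in mgR and 22 of 62 in mgR-LOS, and *Bmp4* in 8, 35 and 20. All 4 genes were detected together in 14, 52 and 21 cells.

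Apart from these, the members differed from capillary-type cells (16 in WT, 29 in mgR and 20 in mgR-LOS) in several secreted and matrix-modifying proteins. Among the genes of at least 200 CPM in every library, *Gxylt2*, a xylosyltransferase acting on Notch-type repeats, led with a level at least 28.9-fold that of capillary-type cells in each library, followed by *Tmem158* (28.5-fold). Where a group held no UMI of a gene the ratio was taken against 3 UMIs in the group. *Sfrp1*, a secreted Wnt antagonist, was at 492, 1354 and 1171 CPM in members and at 0, 4.38 and 0 CPM in capillary-type cells. *Gata6*, *Ctsh*, *Sulf1*, *Slco2a1*, *Gkn3*, *Ptgis*, *Cytl1*, *Mfap5*, *Cgnl1*, *Serpinb6b* and *Vcam1* were also among the 15 leading genes, with smallest ratios between 9.41 and 17.5. Some of them were shared with other cells of the wall. *Ptgis*, prostacyclin synthase, was at 547, 410.2 and 369 CPM in members and 876, 699 and 728 CPM in all other cells, whereas *Gkn3* was at 403, 356 and 263 CPM in members and 0.316, 0.333 and 1.02 CPM in all others. Against all other cells the largest ratios after *Gkn3* belonged to *Bmx*, *Myct1*, *Mmrn2*, *Icam2* and *Bmp6*, with lowest values of 104, 99.35, 89.9, 77.1 and 75.3.

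Abundant transcripts of the members included matrix, cytoskeletal and noncoding RNAs. *Mgp*, the calcification inhibitor matrix Gla protein, was at 9785 CPM in WT (9468 to 10110.3), 10097.4 CPM in mgR (9858 to 10341.3) and 4925 CPM in mgR-LOS (4706 to 5151). *Eln*, which encodes tropoelastin, was at 1896 CPM in WT (1758 to 2042), 3941 CPM in mgR (3792 to 4094) and 2488 CPM in mgR-LOS (2334 to 2650). *Crip1*, *Vim* and *Tmsb4x* were at 6118, 1979 and 3839 CPM, 5109, 3478 and 4476 CPM and 5977, 7229 and 4239 CPM. *Gm42418*, which overlaps ribosomal RNA sequence, took 5.54%, 3.11% and 5.23% of the members' UMIs, and the nuclear RNA *Malat1* 1.3%, 1.04% and 2.83%.

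The members were not uniform. After thinning each cell to 1000 UMIs (2 mgR members were shallower and left out), 15 genes outside the rule varied most in all libraries relative to a Poisson count, against a median lowest ratio of 0.906 over 1042 genes compared. They included *Mgp* (variance over mean of 13.2, 12.7 and 7.66 in WT, mgR and mgR-LOS), *Crip1* (6.42, 4.72 and 9.29), *Apoe* (7.38, 4.13 and 7.38), *Thbs1* (9.09, 3.41 and 4), *Eln* (3.36, 4.15 and 2.77) and *Cytl1* (3.66, 2.5 and 4.81). *Mgp* ranged over single cells from 0 to 567 UMIs per 10000 in WT, with a median of 67.1, and from 2.57 to 486 in mgR, with a median of 45.8. *Cytl1* was not detected in 5, 9 and 10 cells and reached 152, 99.8 and 230 UMIs per 10000.

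**Figure D2:**
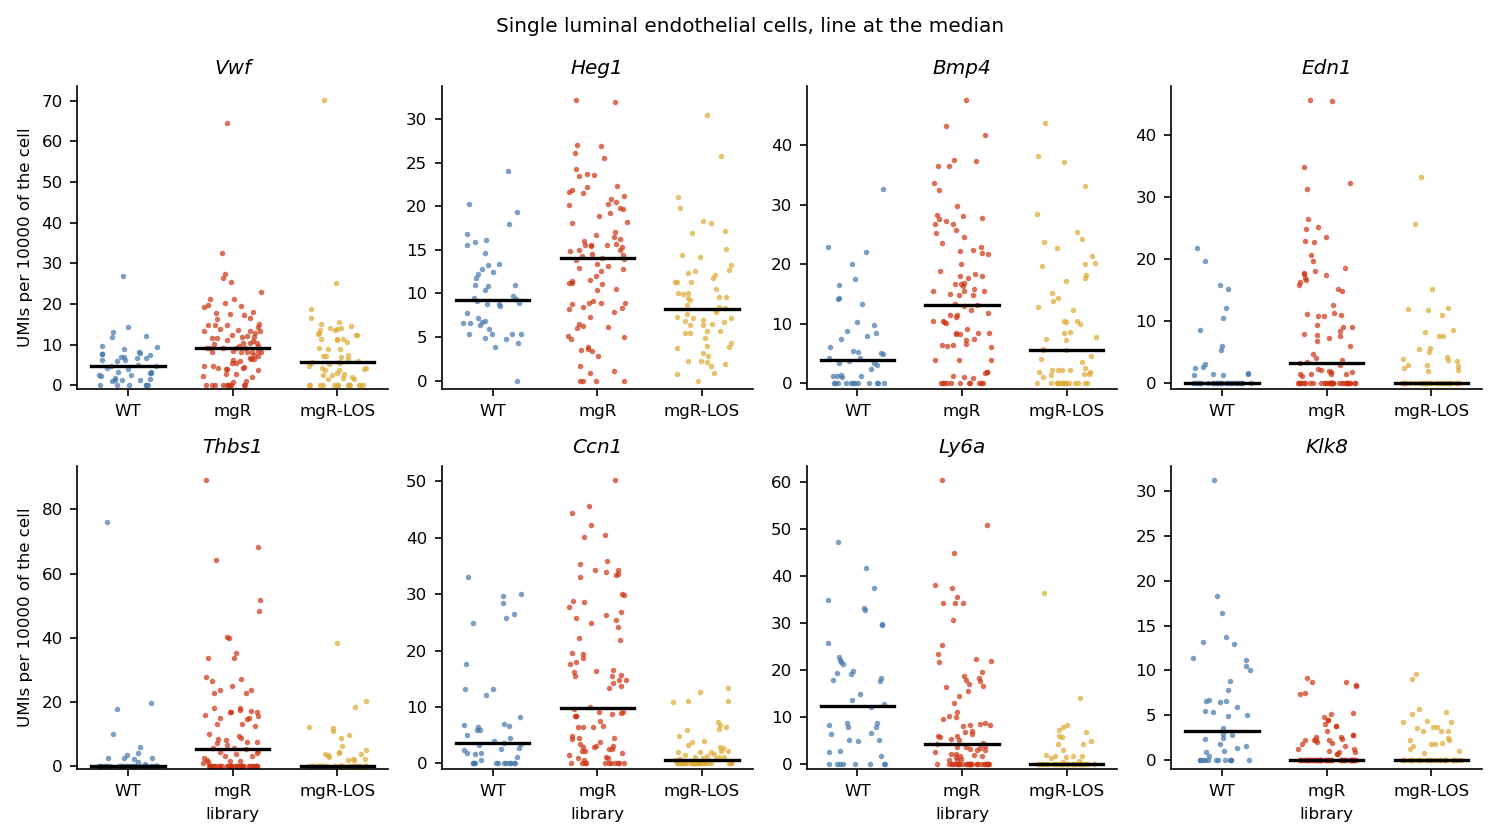
Each point is a luminal endothelial cell, the vertical axis gives its UMIs per 10000 and the black line the median of the library (44, 88 and 62 cells). *Thbs1* was not detected in 31 WT, 31 mgR and 42 mgR-LOS cells, and *Ly6a* in 8, 26 and 42.

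Over the cells of a library 2 sets of genes varied in opposite directions. The Spearman correlations below are over 44, 88 and 62 cells that share a library and differ in depth, and they are a description. *Bmp4* correlated with *Edn1* (0.53, 0.59 and 0.67 in WT, mgR and mgR-LOS), *Pam* (0.52, 0.61 and 0.72), *Ecrg4* (0.49, 0.59 and 0.67) and *Bmp6* (0.55, 0.46 and 0.74). *Pam* encodes an enzyme that amidates secreted peptides, and *Ecrg4* a secreted peptide precursor. *Thbs1* varied with *Ecrg4* (0.6, 0.55 and 0.53), *Pam* (0.49, 0.58 and 0.47), *Icam1* (0.53, 0.39 and 0.39) and *Fbln5* (0.53, 0.39 and 0.52). Its lowest values were with *Slc9a3r2* (-0.46, -0.5 and -0.45) and *Crip1* (-0.38, -0.54 and -0.4). *Edn1* was likewise opposed to *Klf2* (-0.32, -0.41 and -0.5). On the other side *Ly6a*, a surface protein of endothelial and progenitor cells, varied with *Cd9* (0.49, 0.37 and 0.36), *Pi16* (0.42, 0.49 and 0.35) and *Tspo* (0.59, 0.5 and 0.32). *Cytl1* varied with neither set alone, but with the protease inhibitor *Cst3* (0.67, 0.57 and 0.8), *Ctsh* (0.53, 0.61 and 0.68), *Pecam1* (0.61, 0.48 and 0.6) and *Klk8* (0.5, 0.43 and 0.38). *Bmp4* and *Edn1* are genes of the rule, and cells were kept for a high sum of them, so that their correlations describe the chosen cells.

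**Figure D3:**
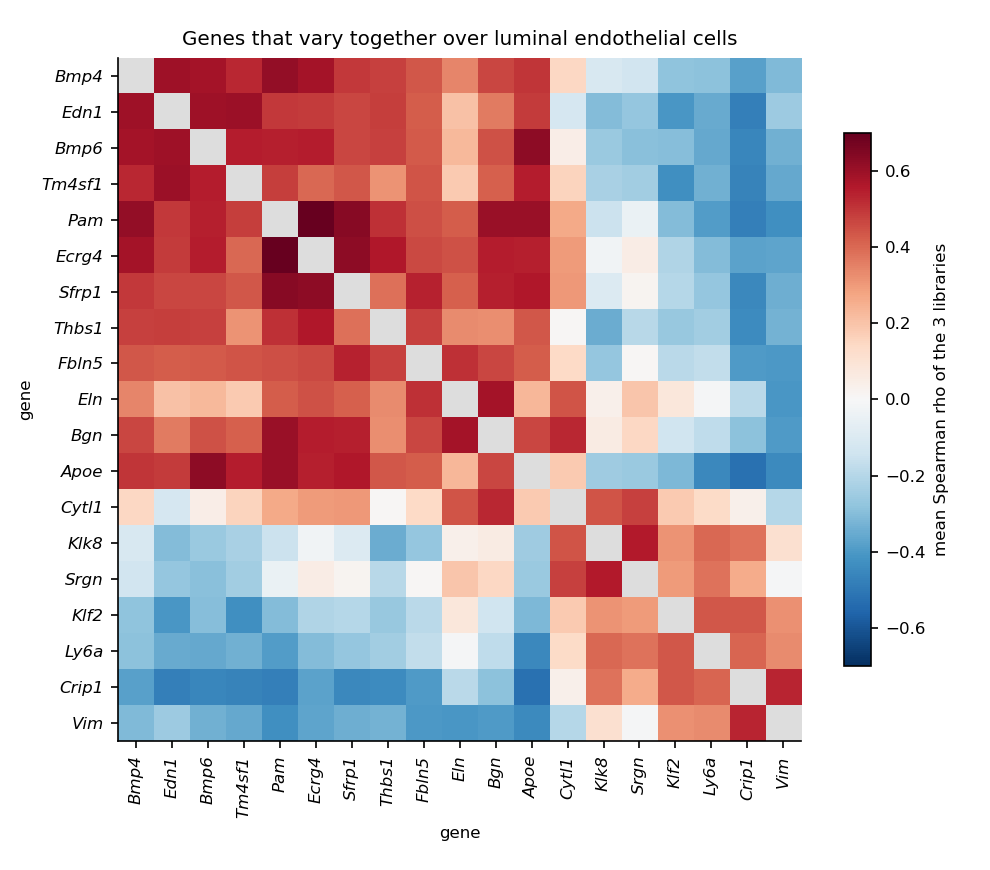
The color gives the mean over the 3 libraries of the Spearman correlation between genes across luminal endothelial cells, computed within each library (n = 44, 88 and 62 cells). The block from *Bmp4* to *Apoe* is positive throughout, and its correlations with *Ly6a*, *Crip1* and *Vim* are negative except for *Eln* with *Ly6a*, which lies near 0.

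Members made up 0.821% (0.597% to 1.10%) of passing cells in WT, 1.09% (0.875% to 1.34%) in mgR and 0.487% (0.374% to 0.624%) in mgR-LOS. Of the cells that met all endothelial limits (91, 195 and 127) they were 48.4% (37.7% to 59.1%), 45.1% (38.0% to 52.4%) and 48.8% (39.9% to 57.8%), intervals that overlap. The share of all cells was thus lowest in mgR-LOS and the share of endothelial cells was not, and how the tissue released its cells was not measured. Leaving cells over 5% mitochondrial UMIs out brought the WT share to 1.101%, and a *Dcn* limit of 10 the mgR-LOS share to 0.322%.

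For mgR over WT, 1842 genes reached 100 CPM in either library. Their median ratio was 1.031, with 77 at 2-fold or more (4.18% of those tested) and 50 at 0.5 or less (2.71%), 6.89% together, of which 60.6% were higher in mgR. Among the genes higher in mgR were *Thbs1*, *Ccn2*, *Icam1*, *Selp*, *Eln* and *Fbln5*, and among those lower were *Klk8*, *Klk10*, *Arl4d* and *Crip1*. Ranks given below are among genes with a UMI in at least 20% of the cells of the higher library and at most 20% of those UMIs in 1 cell, and genes outside these limits can have more extreme ratios. Of the 39 ratios past 2-fold that were followed over the alternatives in this comparison, 25 were past it in every one, as were 22 of 47 for mgR-LOS over mgR and 20 of 36 for mgR-LOS over WT. Single cells are not replicates, so these counts describe a pair of libraries.

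**Figure D4:**
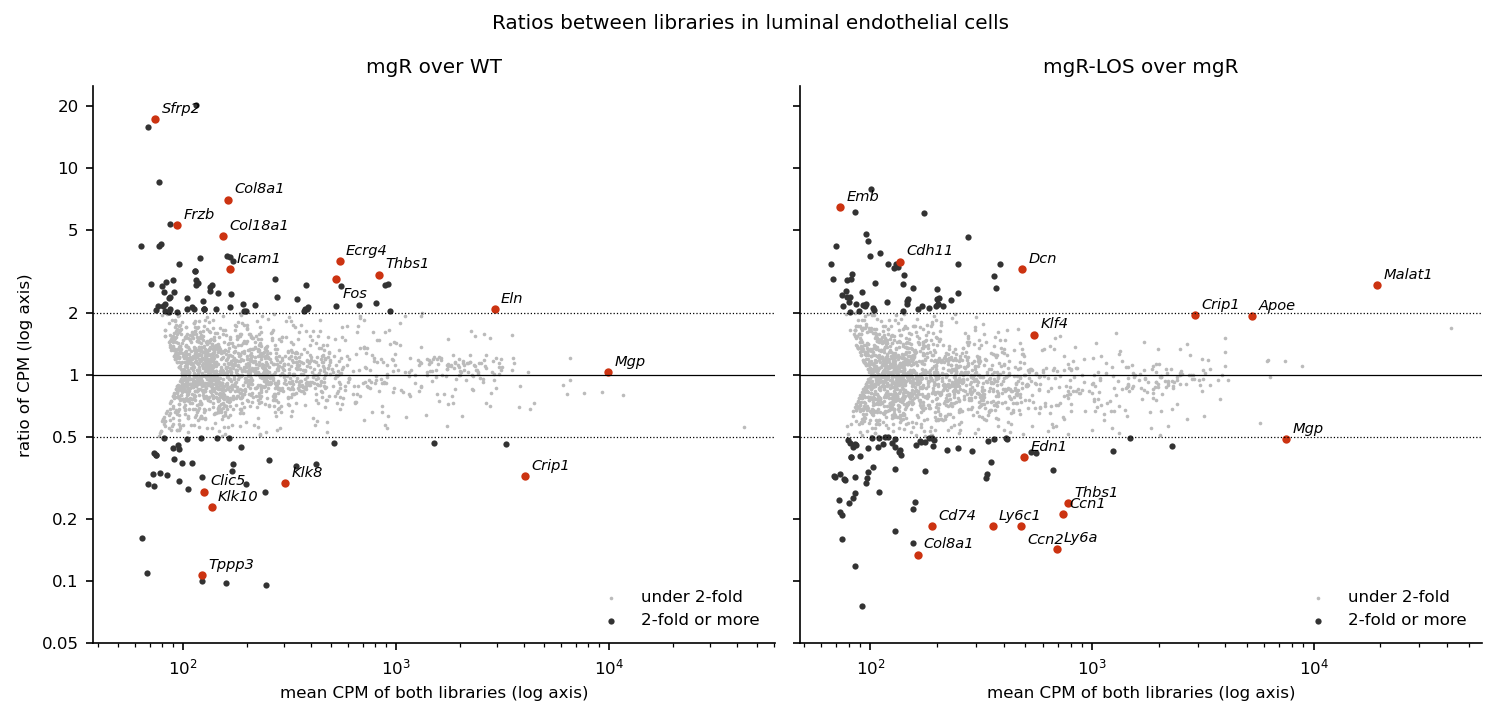
Each point is a gene with at least 100 CPM in either library compared (1842 at left, 1880 at right), the horizontal axis is its mean CPM in luminal cells and the vertical axis the ratio of CPM, both on log axes, with dotted lines at 2-fold. *Sfrp2*, *Col8a1* and *Thbs1* stand above the upper line in mgR over WT, and *Thbs1*, *Ccn1*, *Ccn2* and *Ly6a* below the lower line in mgR-LOS over mgR.

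Matricellular proteins are secreted into the matrix to modulate adhesion and signaling rather than to bear load. *Thbs1* (ENSMUSG00000040152, chr2:118111876-118127133, + strand), thrombospondin-1, was at 413.5 CPM in WT (350.4 to 485), 1264 CPM in mgR (1180 to 1352) and 302 CPM in mgR-LOS (249.5 to 362). The mgR level lay well above the other 2 libraries, whose intervals overlapped, and the mgR-to-WT ratio was 3.06 (2.57 to 3.66). In WT 52.6% of the *Thbs1* UMIs lay in 1 cell; without the leading cell of each library the ratio was 5.67, and with the SMC sum limited to 30 it was 1.95. A *Thbs1* UMI was seen in 13.6%, 50% and 16.1% of thinned members in WT, mgR and mgR-LOS and in 1.86%, 11.5% and 4.14% of thinned SMC-rich cells, whose median depths were 14232, 14857 and 8537.5 UMIs. All other cells also had more *Thbs1* in mgR, with a ratio of 2.36. Most of the shallowest mgR members carried *Thbs1*, *Ccn1*, *Ccn2* and *Fn1*, while most of the 31 mgR members without *Thbs1* were deeper. Whether cell quality enters these levels was not tested.

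*Ccn1* and *Ccn2* encode matricellular proteins induced by YAP and TEAD factors. *Ccn2* was at 299 CPM in WT (246 to 361), 804 CPM in mgR (737 to 875) and 149.6 CPM in mgR-LOS (114 to 193), and its mgR-to-WT ratio was 2.69 (2.185 to 3.33), against 0.942 in all other cells. It was 1.977 with the SMC sum under 30, 4.41 without the leading cells and 6.20 after thinning. As for *Thbs1*, 1 cell held 47.3% of the WT UMIs. *Ccn1* was at 873 CPM in WT (780.3 to 974), 1219 CPM in mgR (1136 to 1305) and 258 CPM in mgR-LOS (209.8 to 314), which did not reach 2-fold over WT. Of the 5 matricellular genes tested 3 were at 2-fold or more and 0 at 0.5 or less, with a median of 2.02, the third being *Sparcl1* with 21, 77 and 11 UMIs, of which 55.8% in mgR lay in 1 cell, and its ratio was 0.682 after thinning.

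The promoter of *Ccn1* is shown because this gene stood among the 10 lowest ranked ratios in mgR-LOS against both other libraries, although class II genes outside the limits on ranked genes lay lower in mgR-LOS over WT. The 250 bases before its start in RefSeq (chr3:145649986-145650235, GRCm38.p6, - strand, printed 5′ to 3′ along the gene) read as follows, with the TEAD motif GGAATG in capitals where it lies on the opposite strand.
Ccn1: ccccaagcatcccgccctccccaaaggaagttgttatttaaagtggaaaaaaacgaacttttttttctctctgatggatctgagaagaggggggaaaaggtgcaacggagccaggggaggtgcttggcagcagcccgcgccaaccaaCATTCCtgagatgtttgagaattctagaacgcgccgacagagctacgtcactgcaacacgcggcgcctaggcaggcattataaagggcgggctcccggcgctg
The motif matched 98 to 103 bases before the start, and 12.6% of the 32851 promoters in the table hold it on either strand within the same length. The AP-1 letters TGANTCA, in 6.75% of promoters, were not in this window.

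Adhesion molecules that capture leukocytes were also higher in mgR. *Vcam1* was at 906 CPM in WT (811 to 1009), 1737 CPM in mgR (1638 to 1840) and 740 CPM in mgR-LOS (657 to 831), with a ratio of 1.92 (1.696 to 2.17) that lay just under 2-fold. The *Vcam1* ratio was 1.16 with 200 to 6000 genes allowed per cell and 2.88 with *Dcn* under 10. It was past 2-fold in 4 of 12 alternatives. *Icam1* was at 78.9 CPM in WT (52.8 to 113), 256 CPM in mgR (219 to 297) and 193 CPM in mgR-LOS (152 to 242), with an mgR-to-WT ratio of 3.245 (2.18 to 4.99). *Selp*, P-selectin, which is stored with von Willebrand factor, was at 139 CPM in WT (103 to 182), 403 CPM in mgR (356 to 454) and 173 CPM in mgR-LOS (134 to 219), with a ratio of 2.903 (2.145 to 3.997). Both were highest in mgR, and mgR-LOS stood above WT for both, though for *Selp* the intervals of these 2 libraries overlapped. Of the 8 genes for leukocyte adhesion and chemokines tested, 4 were at 2-fold or more (*Icam1*, *Selp*, *Cxcl1* and *Cxcl12*) and 0 at 0.5 or less, with a median of 2.41. All other cells had a median of 2.96 for the same genes, so that higher values were not confined to the members. *Cxcl1* had only 3 UMIs in WT, where its ratio of 15.8 (5.22 to 78.01) rests on few molecules. After thinning the ratio was 1.02, but too few WT molecules can remain there to tell whether the excess was lost. A *Selp* UMI was seen in 11.4%, 24.4% and 19.35% of thinned members and 0%, 0.119% and 0.0382% of SMC-rich cells.

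**Figure D5:**
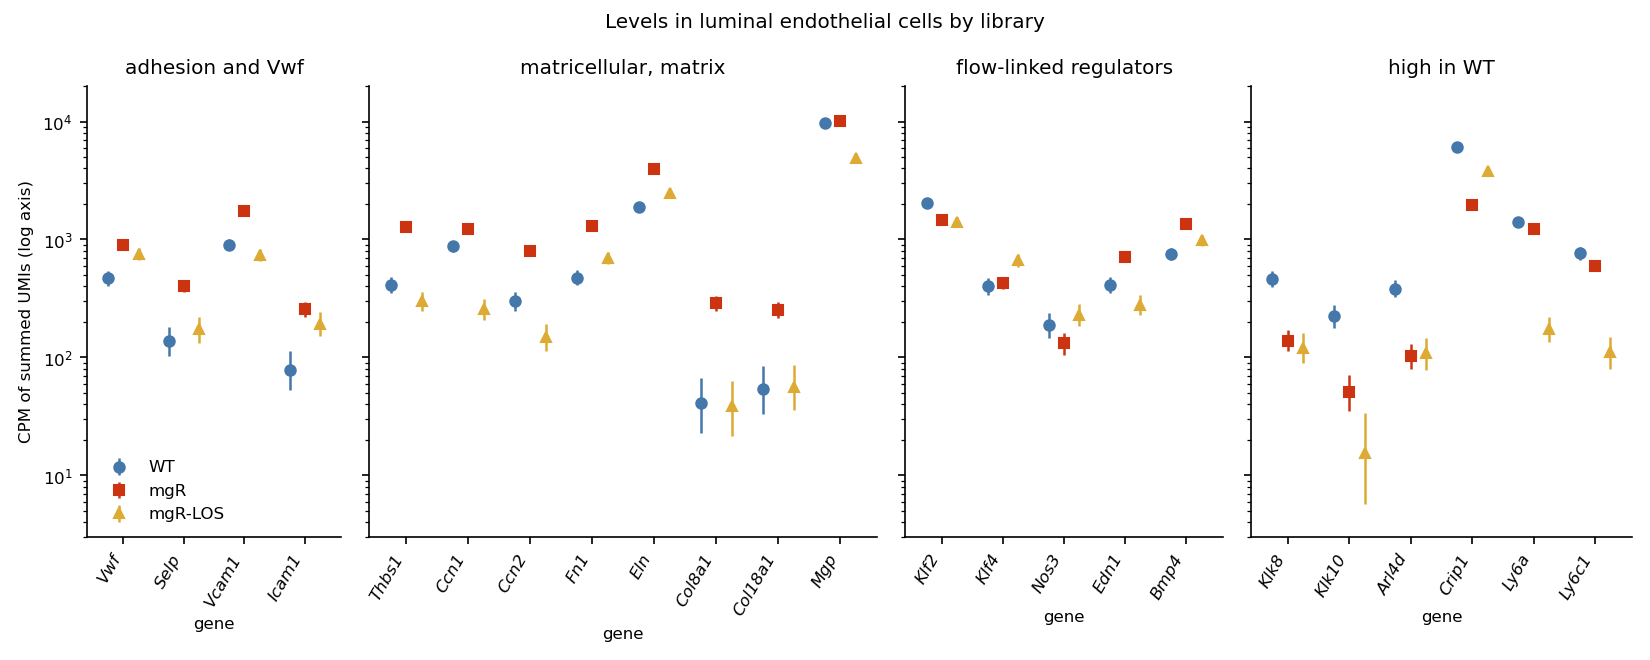
Points give the CPM of summed UMIs in luminal endothelial cells on a log axis for WT (circles), mgR (squares) and mgR-LOS (triangles), and bars the exact 95% Poisson interval, which covers counting error only. *Vwf*, *Selp*, *Vcam1*, *Icam1*, *Thbs1*, *Ccn1* and *Ccn2* were highest in mgR, *Klk8*, *Klk10*, *Arl4d* and *Crip1* in WT, and *Ly6a* and *Ly6c1* were lowest in mgR-LOS, although *Ly6a* was not with 200 to 6000 genes allowed per cell.

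Among the 10 hemostasis genes tested 1 was at 2-fold or more, *Selp*, and 0 at 0.5 or less, with a median of 1.113. *Vwf* itself, which the rule used, had a ratio of 1.92 (1.615 to 2.28), which was 2.92 after thinning and past 2-fold in 3 of 12 alternatives. Without *Vwf* the median of the other 9 hemostasis genes was 1.045. The anticoagulant receptor *Thbd* was at 370, 265 and 235 CPM and the protein C receptor *Procr* at 386, 472 and 394.5 CPM, and neither reached 2-fold. Of the 8 disturbed-flow genes tested 3 were at 2-fold or more (*Icam1*, *Ccn2* and *Thbs1*) and 0 at 0.5 or less, but *Bmp4* and *Edn1* belong to the rule. Over the other 6 the median was 2.302, against 2.57 in all other cells. The 6 laminar shear genes tested had 0 past 2-fold in either direction and a median of 0.722. *Klf2*, a flow-induced transcription factor, was at 2048 CPM in WT (1905 to 2200), 1476 CPM in mgR (1386 to 1571) and 1416 CPM in mgR-LOS (1300 to 1539). *Klf4* was at 403, 427 and 668 CPM, and *Nos3*, endothelial nitric oxide synthase, at 188, 132 and 229.5 CPM. *Klf2* was thus highest in WT, while *Klf4* and *Nos3* were highest in mgR-LOS, although with at most 5% mitochondrial UMIs *Nos3* was not above WT there (0.968).

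Several extracellular matrix genes were also higher in mgR. *Eln* had a ratio of 2.08 (1.91 to 2.26) and 0.954 in all other cells. *Fbln5*, fibulin-5, which tethers elastin to cells, was at 500.5 CPM in WT (431 to 578), 1111 CPM in mgR (1032 to 1194) and 745 CPM in mgR-LOS (662 to 836), with a ratio of 2.22 (1.89 to 2.62). *Lox*, the enzyme that cross-links elastin and collagen, was at 139 CPM in WT (103 to 182), 301 CPM in mgR (261 to 345.5) and 206 CPM in mgR-LOS (164 to 257), with a ratio of 2.17 (1.59 to 3.01). Each of these 3 was highest in mgR and lay between in mgR-LOS, and over the alternatives their ratios of mgR over WT went as low as 1.88, 1.913 and 1.819. *Fn1*, fibronectin, was at 476 CPM in WT (408 to 552), 1300 CPM in mgR (1215 to 1389) and 701 CPM in mgR-LOS (620.5 to 789.8), with 3.13 as the ratio in all other cells and 2.73 (2.32 to 3.23) in the members. *Col8a1*, a short-chain collagen of the subendothelium, was at 40.8 CPM in WT (22.8 to 67.3), 287.5 CPM in mgR (248 to 331) and 38.7 CPM in mgR-LOS (21.65 to 63.8), and 1 cell held 66.7% of its 15 WT UMIs. Of 15 elastic-fiber and interstitial-matrix genes tested these 5 were at 2-fold or more and 0 at 0.5 or less, with a median of 1.53 and 1.24 in all other cells. Thinned shares of *Eln* were 70.45%, 81.4% and 79.03% in members and 93.5%, 92.4% and 87.1% in SMC-rich cells, so that *Eln* of free RNA cannot be told apart from the members' own by this measure. In capillary-type cells, which share the free RNA of their library, *Eln* stood at 409, 241 and 150.2 CPM.

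Of 8 basement-membrane genes 2 were at 2-fold or more and 0 at 0.5 or less (median 1.66), 1 of them, *Col4a2*, being at 1.535 after thinning. *Col18a1*, the precursor of endostatin, was at 54.4 CPM in WT (33.2 to 84.03), 254.5 CPM in mgR (218 to 296) and 56.7 CPM in mgR-LOS (35.55 to 85.9), and *Col4a2*, a chain of type IV collagen, at 76.2 CPM in WT (50.6 to 110.1), 193 CPM in mgR (161 to 229.5) and 152 CPM in mgR-LOS (116 to 196). The ratio of *Col18a1* was 4.68 (2.94 to 7.85), and it ranged from 2.22 with equal weight per cell to 12.2 with at most 5% mitochondrial UMIs. *Col4a1* and *Col4a2* were nonetheless lower in members than in capillary-type cells, where *Col4a1* was at 2522, 2287 and 2689 CPM against 242, 421 and 299 CPM.

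*Sfrp2*, a Wnt antagonist with the largest ranked ratio, was at 8.16 CPM in WT (1.68 to 23.85), 141 CPM in mgR (114 to 172) and 322 CPM in mgR-LOS (268 to 384), with a ratio of 17.25 (5.72 to 85.1) that rests on 3 WT UMIs and was 42.2 with equal weight per cell. The value of 3.58 after thinning cannot show a smaller ratio, since at most these 3 WT UMIs remain and 3 are assumed for 0. *Frzb*, of the same family, was at 29.9 CPM in WT (14.9 to 53.5), 159 CPM in mgR (129.9 to 192) and 108 CPM in mgR-LOS (78.05 to 146). *Bmp6* was at 250.3 CPM in WT (202 to 307), 521 CPM in mgR (468 to 579) and 449 CPM in mgR-LOS (384.5 to 520.5), with a ratio of 2.08 (1.65 to 2.65), and *Ecrg4* at 239 CPM in WT (192 to 295), 852 CPM in mgR (783 to 925) and 477 CPM in mgR-LOS (411 to 551), with 3.56 (2.84 to 4.51). The *Bmp6* ratio was as low as 1.82 in an alternative. All 4 were also higher in mgR-LOS than in WT, and *Sfrp2* was highest there, with 31.2% of its UMIs in 1 cell. Of 15 genes of the TGF-β and bone morphogenetic protein pathway tested, 1 (*Bmp6*) was at 2-fold or more and 0 at 0.5 or less, with a median of 1.19. Without *Bmp4*, a gene of the rule, the median of the other 14 was 1.176. *Id1* and *Id3*, targets of bone morphogenetic protein signaling, were at 465, 502 and 498 CPM and 1823, 1361 and 1485 CPM, and *Smad7*, an inhibitor induced by TGF-β, at 209.5, 283 and 330 CPM. The other genes among the 10 largest ratios were *Ddah1*, *Sdcbp2*, *Pcdh7*, *Man2a1* and *Litaf*, between 3.44 and 5.39. *Sdcbp2* was at 1.364 after thinning, a value with few UMIs behind it.

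Genes lower in mgR included a pair of serine proteases of the kallikrein cluster. *Klk8* (ENSMUSG00000064023, chr7:43797577-43803826, + strand) was at 465 CPM in WT (398 to 540.4), 139 CPM in mgR (112 to 171) and 121 CPM in mgR-LOS (89.04 to 161). *Klk10* (ENSMUSG00000030693, chr7:43781035-43785410, + strand) was at 223 CPM in WT (177 to 277), 50.9 CPM in mgR (35.25 to 71.1) and 15.5 CPM in mgR-LOS (5.68 to 33.7). Both were highest in WT, and their ratios of mgR over WT were 0.299 (0.23 to 0.3875) and 0.228 (0.148 to 0.344). They were close to absent elsewhere, with 0.6465, 2.13 and 0.948 CPM and 0.0575, 0.0302 and 0.0542 CPM in all other cells, and a UMI of *Klk8* was seen in 36.4%, 13.95% and 8.065% of thinned members and 0%, 0.0298% and 0.0255% of SMC-rich cells. Since they belong to 1 gene cluster and had lower levels in both mutant libraries, their promoters are shown. They are the 250 bases before the RefSeq starts (chr7:43797327-43797576 and chr7:43780804-43781053, GRCm38.p6, + strand), with the letters CACCC, the core of boxes that Krüppel-like factors recognize, in capitals on either strand.
Klk8: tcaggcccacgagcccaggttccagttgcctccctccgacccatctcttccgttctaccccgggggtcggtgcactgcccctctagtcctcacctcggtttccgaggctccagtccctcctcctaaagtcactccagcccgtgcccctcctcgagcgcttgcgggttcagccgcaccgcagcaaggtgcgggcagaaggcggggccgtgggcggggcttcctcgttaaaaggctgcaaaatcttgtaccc
Klk10: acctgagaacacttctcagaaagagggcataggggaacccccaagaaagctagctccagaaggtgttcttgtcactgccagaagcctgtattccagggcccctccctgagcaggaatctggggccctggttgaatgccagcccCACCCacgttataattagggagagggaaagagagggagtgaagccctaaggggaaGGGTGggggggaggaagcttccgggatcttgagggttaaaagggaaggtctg
The letters occur 2 times before *Klk10*, at 107 to 103 bases on the + strand and at 52 to 48 bases on the - strand, and 0 times before *Klk8*. They are in 52% of the promoters of the table, so that a match is common.

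*Crip1*, a small LIM-domain protein, was at 6118 CPM in WT (5868 to 6376), 1979 CPM in mgR (1874 to 2089) and 3839 CPM in mgR-LOS (3647 to 4039), with a ratio of mgR over WT of 0.3235 (0.302 to 0.346) and 1.15 in all other cells. *Arl4d*, a small GTPase, was at 384 CPM in WT (323 to 452), 103 CPM in mgR (80.4 to 131) and 108 CPM in mgR-LOS (78.05 to 146), and *Clic5*, a protein of the cortical cytoskeleton, at 199 CPM in WT (156 to 249.7), 53.9 CPM in mgR (37.75 to 74.6) and 186 CPM in mgR-LOS (145 to 234). *Crip1* and *Clic5* were higher again in mgR-LOS, whereas *Arl4d* was not. *Tppp3*, *Cst6*, *Nsg1*, *Ankrd33b* and *Pmp22* completed the 10 smallest ratios, between 0.107 and 0.319, of which *Cst6* was at 0.638 with 200 to 6000 genes allowed and *Pmp22* at 0.597 after thinning. *Top2a* and *Cdk1*, 2 of 3 cell-cycle genes tested, were at 0.5 or less with 38 and 41 WT UMIs, of which 78.95% and 87.8% lay in 1 cell, and they were at 0.0655 and 0.32 without the leading cells. MHC class II genes, which present peptides to helper T cells and which endothelium can express, had another direction than in the rest of the tissue. *H2-Aa* was at 209.5 CPM in WT (165 to 262), 117 CPM in mgR (92.3 to 146) and 46.4 CPM in mgR-LOS (27.5 to 73.35) in members and 93.1, 492 and 208 CPM in all other cells. The 4 class II genes tested had 0 past 2-fold in either direction and a median of 0.576 in members, against 5.07 in all other cells, where the summed immune list was 746.3 CPM in WT and 5170 CPM in mgR. A UMI of *H2-Aa* was found in 13, 29 and 12 members.

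Immediate early genes, which respond to tissue dissociation, gave 2 of 15 at 2-fold or more (*Fos* and *Fosb*), 0 at 0.5 or less and a median of 1.31 for mgR over WT. *Fos*, a subunit of AP-1, was at 269 CPM in WT (219 to 328), 785 CPM in mgR (719 to 855) and 327.5 CPM in mgR-LOS (273 to 389.6) in members and at 2765, 2204 and 3483 CPM in capillary-type cells. The members had the lower *Fos* level of the 2 in every library. Of the remaining lists, the Notch pathway had 0 of 4 at 2-fold or more and 1 at 0.5 or less, *Dll1* (109, 53.9 and 82.5 CPM; a ratio of 2.05 after thinning), the arterial list 1 of 7 (*Fbln5*) and 0 at 0.5 or less (median 1.57), the pan-endothelial list 0 of 10 in either direction (median 1.10), the vasomotor list 0 of 12 in either direction (median 0.889), and genes of endothelial-mesenchymal transition 1 of 7 (*Fn1*) and 0 at 0.5 or less (median 1.5). The VEGF and angiopoietin pathway (4 genes tested, median 1.18), the cerebral cavernous malformation pathway (5, 1.06) and interferon-stimulated genes (3, 1.29) had 0 past 2-fold in either direction. Genes of the rule are in some of these lists. Over the tested genes outside it the medians were 1.076 (pan-endothelial, 8 genes) and 0.8363 (vasomotor, 11 genes). They were 1.409 (endothelial-mesenchymal transition, 5 genes) and 0.9675 (cerebral cavernous malformation pathway, 4 genes).

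For mgR-LOS over mgR, which shares the mgR library with the comparison above, so that a high or low mgR value enters both, 1880 genes were tested. The median ratio was 0.957, with 63 genes at 2-fold or more (3.35%) and 81 at 0.5 or less (4.31%), 7.66% together. Of these, 43.8% were higher in mgR-LOS; when mitochondrial, ribosomal protein and globin genes, *Gm42418* and *AY036118* were left out of the total, 104 were higher and 88 lower (54.2% higher), but the number of genes past the floor then rose to 2431. With the ratios of the same 1880 genes centred on their median, 76 were higher and 66 lower. The members of mgR-LOS were also the shallowest.

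*Ccn1*, *Ccn2* and *Thbs1* were among the 10 lowest ratios, at 0.212 (0.1701 to 0.261), 0.186 (0.139 to 0.244) and 0.239 (0.195 to 0.29). The ratio in all other cells was 0.8896 for *Ccn1*, 0.369 for *Ccn2* and 0.438 for *Thbs1*. The median *Ccn1* value of a cell was 3.56 UMIs per 10000 in WT, 9.77 in mgR and 0.665 in mgR-LOS, with the highest cell at 33.1, 50.2 and 13.4. Of 5 matricellular genes tested 4 were at 0.5 or less (these and *Sparcl1*, which was at 0.6935 after thinning) and 1, *Postn*, at 2-fold or more, with a median of 0.239 and 0.874 in all other cells. *Postn*, periostin, had 68.75% of its 112 mgR-LOS UMIs in 1 cell, and its ratio of 2.61 turned to 0.669 with 200 to 6000 genes allowed.

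Of the 8 disturbed-flow genes tested 6 were at 0.5 or less and 0 at 2-fold or more. Without *Bmp4* and *Edn1*, genes of the rule, 5 of 6 were at 0.5 or less, with a median of 0.298 against 0.518 in all other cells. The 6 were *Edn1* at 0.398 (0.3199 to 0.491), *Vcam1* at 0.426 (0.373 to 0.485), *Pdgfb* at 0.358 (0.2125 to 0.577) and the 3 matricellular genes above, the *Pdgfb* ratio being 0.721 with 200 to 6000 genes allowed. *Icam1* at 0.755 (0.568 to 0.9965) and *Bmp4* at 0.732 (0.648 to 0.8265) were not. *Pdgfb*, the growth factor by which endothelium recruits mural cells, stood at 119.7, 151 and 54.15 CPM. Of the 8 leukocyte adhesion genes 5 were at 0.5 or less (*Vcam1*, *Selp*, *Cxcl1*, *Cxcl12* and *Ackr3*) and 0 at 2-fold or more, with a median of 0.46. After thinning *Selp* was at 0.777 and *Cxcl1* at 0.6935, and *Vcam1* and *Ackr3* went as high as 0.536 and 0.565 over the alternatives. *Ackr3*, a scavenging receptor for CXCL12, was at 419, 484 and 237 CPM. Laminar shear genes had 0 of 6 past 2-fold in either direction and a median of 1.155, with *Klf2* at 0.959 (0.862 to 1.065), *Klf4* at 1.565 (1.32 to 1.86) and *Nos3* at 1.74 (1.28 to 2.37).

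*Eln*, *Fn1*, *Fbln5* and *Lox* were lower in mgR-LOS than in mgR and above their WT level. *Col8a1* and *Col18a1* had ratios of 0.1345 (0.0739 to 0.2275) and 0.223 (0.136 to 0.349) that left both within the WT interval. *Mgp* had a ratio of 0.488 (0.463 to 0.513) and 0.494 in all other cells, lay below its WT level and was at 0.5 or less in 6 of 12 alternatives, whereas *Eln* had 0.631 (0.586 to 0.68) and *Fn1* 0.5397 (0.469 to 0.619). *Fn1* was nonetheless at 0.5 or less in 5 of 12 alternatives, down to 0.352 with 200 to 6000 genes allowed. *Sparc*, a collagen-binding glycoprotein that was likewise lowest in mgR-LOS, was at 2013, 3173 and 1426 CPM. Of 16 elastic-fiber and interstitial-matrix genes tested 2 were at 0.5 or less (*Mgp* and *Col8a1*) and 2 at 2-fold or more (*Ltbp1* and *Postn*), with a median of 0.719 and 0.746 in all other cells, and of 8 basement-membrane genes 2 were at 0.5 or less (*Col18a1* and *Sparc*) and 0 at 2-fold or more (median 0.786).

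The surface genes *Ly6a* and *Ly6c1*, and the 4 class II genes tested, were lowest in mgR-LOS at 600 to 5000 genes per cell. *Ly6a* was at 1404 CPM in WT (1285 to 1530), 1220 CPM in mgR (1138 to 1307) and 175 CPM in mgR-LOS (136 to 222), and *Ly6c1* at 762 CPM in WT (675 to 856), 602 CPM in mgR (544.5 to 664) and 111 CPM in mgR-LOS (80.2 to 149). WT and mgR stood close to each other and mgR-LOS lay far lower, with ratios over mgR of 0.144 (0.1105 to 0.184) and 0.184 (0.131 to 0.253). For *Ly6a* this rested on the limits on genes per cell, since with 200 to 6000 genes allowed its ratio over mgR was 1.07. *Ly6c1* was then at 0.572 over mgR and 0.38 over WT, so that it was still lowest in mgR-LOS. The class II genes had 4 of 4 at 0.5 or less and a median of 0.267, against 0.426 in all other cells. *H2-Aa* was at 0.6165 after thinning and *H2-Eb1* at 0.529 with equal weight per cell, whereas *Cd74* and *H2-Ab1* were at 0.5 or less in every alternative. *Cd74*, the invariant chain, was at 539 CPM in WT (466 to 619), 320.4 CPM in mgR (279 to 366) and 59.3 CPM in mgR-LOS (37.6 to 88.99), seen in 16, 39 and 14 cells, with 209.9, 1089 and 519 CPM in all other cells. Of 3 interferon-stimulated genes 2 were at 0.5 or less, *Bst2* at 0.494 (at 0.5 or less in 5 of 12 alternatives) and *Ly6e* at 0.3455, and 0 at 2-fold or more (median 0.494, 0.527 in all other cells).

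Of the 7 arterial genes tested 3 were at 0.5 or less. *Gja4*, a connexin, was at 160.5 CPM in WT (122 to 207), 309.9 CPM in mgR (269 to 355) and 134 CPM in mgR-LOS (100.1 to 176), and *Gja5* at 147 CPM in WT (110.4 to 192), 231 CPM in mgR (196 to 270) and 108 CPM in mgR-LOS (78.05 to 146). *Sox17*, an arterial transcription factor, was at 122 CPM in WT (89.3 to 164), 135 CPM in mgR (108 to 166) and 36.1 CPM in mgR-LOS (19.7 to 60.6), and *Bmx* at 209.5 CPM in WT (165 to 262), 289 CPM in mgR (249.6 to 333) and 467 CPM in mgR-LOS (401 to 539.9). *Gja4*, *Gja5* and *Sox17* were those at 0.5 or less (0 at 2-fold or more, median 0.671), whereas *Bmx* was highest in mgR-LOS and under 2-fold over mgR. With 200 to 6000 genes allowed none of the 3 was at 0.5 or less, with *Gja4* at 0.591, *Gja5* at 0.6415 and *Sox17* at 0.651. *Hes1*, a Notch target, was at 57.1 CPM in WT (35.4 to 87.3), 88.3 CPM in mgR (67.25 to 114) and 206 CPM in mgR-LOS (164 to 257), the 1 of 4 Notch pathway genes at 2-fold or more (0 at 0.5 or less, median 1.53), and its ratio in all other cells was 1.92. It was 1.908 in the members with 200 to 6000 genes allowed, which leaves the list with no call, and 3.815 after thinning. The receptors *Nrp1* and *Flt1* were at 237, 346 and 578 CPM and 291, 271 and 392 CPM, and the 4 VEGF and angiopoietin genes had 0 past 2-fold in either direction (median 1.398).

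The largest ranked ratios were 6.49 (3.47 to 13.04) for *Emb*, embigin, a partner of monocarboxylate transporters, with 13 and 49 UMIs in mgR and mgR-LOS, 3.53 (2.39 to 5.29) for *Cdh11*, a mesenchymal cadherin, and 3.44 (2.32 to 5.197) for *Ltbp1*, which stores latent TGF-β in the matrix. With 200 to 6000 genes allowed they were at 2.65 for *Emb* and 1.918 for *Ltbp1*, which ends the call of *Ltbp1*. *Cdh11* was seen in 16, 10 and 17 cells. *Dcn*, which the rule limits, was at 617.5 CPM in WT (539.8 to 703), 228 CPM in mgR (193 to 267) and 737 CPM in mgR-LOS (654 to 828), and its ratio of 3.24 was 1.36 with 200 to 6000 genes allowed. *Clic5*, *Fam129a*, *Fmo1*, *Nmt1*, *Atp1b1* and *Fabp5* (1.437 after thinning) completed the 10, between 2.99 and 3.44, and *2200002D01Rik*, *H2-Ab1* and *Sdcbp2* the 10 lowest. *Fmo1* and *Nmt1* were each at 1.942 after thinning, under 2-fold. *Malat1* was at 13000.7, 10411.8 and 28257.4 CPM, with 20.4% of the mgR-LOS UMIs in 1 cell and a ratio of 1.75 in all other cells. Immediate early genes had 3 of 15 at 0.5 or less (*Fos*, *Fosb* and *Dusp1*) and 0 at 2-fold or more, with a median of 0.648 and 0.969 in all other cells. Genes of hemostasis had 1 of 10 at 0.5 or less (*Selp*) and 0 at 2-fold or more (median 0.8585), those of endothelial-mesenchymal transition 1 of 7 (*S100a4*) and 0 (median 0.771), and vasomotor genes 1 of 13 (*Edn1*, of the rule) and 1 at 2-fold or more, *Ddah2* (median 1.06). The TGF-β and bone morphogenetic protein pathway had 1 of 16 at 2-fold or more (*Ltbp1*) and 0 at 0.5 or less (median 1.01). Genes of the rule are in the hemostasis, transition, vasomotor and TGF-β lists. Over the tested genes outside it the medians were 0.8804 for hemostasis (9 genes) and 0.7439 for endothelial-mesenchymal transition (5 genes). They were 1.086 for vasomotor genes (12 genes) and 1.027 for the TGF-β list (15 genes). *Ddah2* was past 2-fold in 9 of 12 alternatives and at 1.851 with 200 to 6000 genes allowed.

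For mgR-LOS over WT, which shares a library with each comparison above, 1885 genes were tested with a median ratio of 0.987, 97 at 2-fold or more (5.15%) and 77 at 0.5 or less (4.08%), 9.23% together. The balance of directions depends on the setting, with 296 higher and 355 lower after thinning, 127 and 65 with *Dcn* under 10, and 155 and 98 with the same genes left out of the total as above. Some genes lay near or below their WT level in mgR-LOS and others above it. *Ccn1* was lower than in WT, at 0.295 (0.2335 to 0.371), and *Thbs1* had 0.7296 (0.568 to 0.935), which was 1.11 without the leading cells and 1.047 with at most 5% mitochondrial UMIs, so that its direction against WT depends on the cells kept. *Klk10*, *Klk8* and *Arl4d* were as low as in mgR or lower, with ratios over WT of 0.06935 (0.0247 to 0.1575), 0.2605 (0.1845 to 0.362) and 0.282 (0.195 to 0.401). For *Klk8* the order against mgR depends on the setting. Its ratio over mgR was 0.8703, but 1.313 with *Dcn* under 10 and 1.513 after thinning. *Fn1* at 1.47 (1.21 to 1.79), *Fbln5* at 1.49 (1.23 to 1.801), *Vwf* at 1.604 (1.32 to 1.95) and *Bmp6* at 1.79 (1.385 to 2.33) stayed above WT by less than 2-fold, and *Icam1* at 2.45 (1.58 to 3.904) by more, although at 1.541 with at most 5% mitochondrial UMIs and 1.725 with 200 to 6000 genes.

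Of the 4 class II genes 4 were at a ratio of 0.5 or less (median 0.149), whereas all other cells had a median of 2.16. Of 8 disturbed-flow genes 3 were at 0.5 or less (*Ccn1*, *Ccn2* and *Pdgfb*) and 1, *Icam1*, at 2-fold or more, and without *Bmp4* and *Edn1*, genes of the rule, the median of the other 6 was 0.615. The *Ccn2* ratio lay at the limit (0.4998), stayed at 0.5 or less in 4 of 12 alternatives and ranged from 0.241 to 0.9615, and that of *Pdgfb* was 0.89 with 200 to 6000 genes. Of 15 elastic-fiber and interstitial-matrix genes 3 were at 2-fold or more (*Ltbp1*, *Postn* and *Col3a1*) and 0 at 0.5 or less (median 1.45; *Col3a1* was past 2-fold in 6 of 12 alternatives, 1.352 with the SMC sum under 30 and 0.873 after thinning, *Postn* was 1.826 with equal weight per cell and *Ltbp1* 9.59 with at most 5% mitochondrial UMIs), and laminar shear genes had 0 of 6 past 2-fold in either direction (median 0.976). *Man2a1*, a Golgi mannosidase, had the largest ranked ratio at 5.43 (2.84 to 11.4), followed by *Nmt1*, *Ltbp1*, *Abcf1*, *Gpc6*, *Hes1*, *Myl9*, *Phldb2*, *Bclaf1* and *Golga4*, down to 2.99. After thinning *Gpc6* was at 0.946, *Phldb2* at 1.183, *Myl9* at 1.845 and *Bclaf1* at 1.952, with few UMIs behind these values. The 10 smallest of the ranked ratios were *Klk10*, *Ly6a*, *Ly6c1*, *Cthrc1*, *Cst6*, *Klk8*, *Gstp1*, *Arl4d*, *Sox17* and *Ccn1*, of which *Ly6a* was at 0.761, *Sox17* at 0.68 and *Cst6* at 1.031 with 200 to 6000 genes allowed.

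Markers of other cells differed between the libraries. The rule limits all 6 SMC genes and *Dcn*, so that their levels in members describe the chosen cells. The 6 SMC genes summed to 1134, 1699 and 2150 CPM in members of WT, mgR and mgR-LOS, led by *Acta2* at 506, 810 and 874 CPM, against 39883.7, 25538.9 and 33856.4 CPM in all other cells, and to 1426, 1503 and 2053 CPM in capillary-type cells. The 9 fibroblast genes summed to 1091, 727.7 and 1516 CPM in members, led by *Dcn*, with *Dpt* at 0 UMIs in WT. The 10 immune genes summed to 555, 434.2 and 201.1 CPM, led by *Cd74* in WT and mgR and by *Cxcl2* in mgR-LOS, with *Ptprc* at 0 by the rule and *Il1b*, *Ccl4* and *Fcer1g* also at 0 in WT. Red-cell genes summed to 21.8, 16.5 and 33.5 CPM, mesothelial genes to 10.9, 5.99 and 2.58 CPM and Schwann cell genes to 5.44, 1.5 and 0 CPM. The part of these cells' RNA in the ratios of *Myl9*, *Acta2*, *Tagln*, *Dcn*, *Postn* and the collagens was not tested.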

How the data were processed

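The authors aligned 10x 3′ (v3.1) libraries to GRCm38 (mm10) and deposited UMI counts for 32285 genes per barcode, without normalization. Per the file headers CellRanger 5.0.1 (WT, mgR) and 6.0.1 (mgR-LOS) were used, whereas the submitters' processing notes name Cell Ranger 6.0.1 for all. Each molecule is counted by its 3′ tag, so levels are not scaled to length. WT, mgR and mgR-LOS comprised 7858, 10657 and 14663 barcodes, which carried 83338726, 123956320 and 121436873 UMIs.

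Counts were summed over member cells and scaled to CPM with numpy 2.4.6 and pandas 2.3.3. With scipy 1.17.1, sums received exact Poisson, shares exact binomial (Clopper-Pearson) and ratios exact conditional binomial intervals (95%). A gene entered a comparison at 100 CPM in either library, and was counted at a ratio of at least 2 or at most 0.5. A fixed seed was used to thin cells to 1000 UMIs. Against 0 UMIs, 3 were assumed, which can set the ratio of a sparse gene after thinning. Doublets were scored with scikit-learn 1.9.0 against 25% artificial doublets over 10 components. Gene positions are from GENCODE M21, promoters from the RefSeq table (GRCm38.p6). Ratios and their intervals were tested on simulated counts. Thinning was checked on WT barcodes only for a total of 1000 UMIs per cell.

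The members and the 29 gene lists (280 genes, 1 not in the files) were chosen with earlier results of these data known. Named genes are those of the rule; in each comparison the 10 largest and 10 smallest ratios among genes with a UMI in at least 20% of the cells of the higher library and at most 20% of those UMIs in 1 cell; list genes; the 15 genes most above capillary-type cells and the 15 most above all others; the 20 most abundant; the 15 most variable; and for chosen genes those that varied with them. A few genes that meet these rules are not reported here. *Pdgfb*, *Col4a1*, *Flt1* and others are list genes picked for the text after their values were seen. There were 15 alternatives, on the limits for cells, weighting, scaling, thinning, the CPM floor and the fold limit.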

Additional observations from a re-analysis of the deposited data

Results flagged for a closer look

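Outside the limits on genes and mitochondrial UMIs, 16 barcodes in WT, 30 in mgR and 20 in mgR-LOS met all other terms of the rule. They were flagged because they carry the endothelial and luminal genes outside the cells of the comparisons, although some of those outside the gene limits enter where 200 to 6000 genes are allowed. They differed between libraries in kind, with medians of 3888, 1937.5 and 20947 UMIs, 1577.5, 873.5 and 5070.5 genes and 14.1%, 4.66% and 4.57% mitochondrial UMIs. In these barcodes *Thbs1* stood at 150.6, 2228 and 281.8 CPM in WT, mgR and mgR-LOS, *Fn1* at 314.4, 3163 and 734 CPM and *Ccn1* at 412.6, 1164 and 337.6 CPM, in each case highest in mgR as among the members. *Klk8* was at 445.3, 105.3 and 111.5 CPM and *Klk10* at 248.9, 27.0 and 18.6 CPM, again highest in WT. *Ly6a* was at 2050, 313.3 and 1703 CPM, so that its order between mgR and mgR-LOS was the opposite of that among the members.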

How the results depend on the processing

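No paired analysis was possible because each condition is 1 library of pooled mice. With 1 library a condition, batch, pool and condition cannot be told apart, and no alternative replaces a replicate. Of 1889 gene values under the alternatives, 1603 stayed within their counting interval, 277 moved and 9, of ratios past 2-fold, reversed; the cause was not tested. Of ratios under 2-fold 3 of 12 (mgR over WT), 2 of 10 (mgR-LOS over mgR) and 7 of 14 (mgR-LOS over WT) crossed 1 in some alternative, among them *Thbs1* (0.7296 to 1.11) *Fos* (1.216 to 0.679) and *Nos3* (1.223 to 0.968) for mgR-LOS over WT. The reversed ratios were, with 200 to 6000 genes allowed, *Ly6a* (1.066) and *Postn* (0.669) for mgR-LOS over mgR and *Cst6* (1.031) for mgR-LOS over WT; with *Dcn* under 10, *Dcn* (1.333) for mgR over WT; with the luminal sum at least 2 times the others, *Postn* (0.891) for mgR-LOS over mgR; and after thinning, *Dll1* (2.047) and *Sparcl1* (0.682) for mgR over WT and *Col3a1* (0.873) and *Gpc6* (0.946) for mgR-LOS over WT. Thinning, which leaves few UMIs of a sparse gene, moved 63 of 155 ratios by over 1.5 times. The wider gene limit and the 5% mitochondrial limit moved 26 of 158 each, *Dcn* under 10 19 of 154 and the leading cell 17 of 158.

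The number of genes past 2-fold in mgR-LOS over WT was 107 with 200 to 6000 genes and 292 with at most 5% mitochondrial UMIs, against 174. After thinning the numbers for mgR over WT, mgR-LOS over mgR and mgR-LOS over WT were 572, 483 and 651, where few UMIs stand behind a value; by construction they were 322, 333 and 445 with a floor of 50 CPM, 55, 69 and 70 with 200 CPM, and 389, 432 and 542 with a 1.5-fold limit. Without the leading cell of each gene mgR over WT had 85 higher and 25 lower. The share of members was 1.101% in WT with the 5% mitochondrial limit, and in mgR-LOS 0.346% with the SMC sum under 30 and 0.322% with *Dcn* under 10. Depth limits genes near 100 CPM most, and the members of mgR-LOS were the shallowest.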

Other observations

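The cells kept out by the limit on *Dcn* alone could not be placed by the fixed markers. They had the luminal sum largest and carried *Pecam1* at 1066, 923 and 1206 CPM in WT, mgR and mgR-LOS, *Cytl1* at 1366, 910.3 and 2578 CPM and *Hand2*, a transcription factor of heart and valve mesenchyme, at 224.3, 278.2 and 181.2 CPM. *Col3a1* was at 5729, 783.9 and 1827 CPM. *Thbs1*, at 148.2, 113.8 and 157.9 CPM, did not have its highest level in mgR there, unlike in the members. How many of them are single cells was not determined.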
